A study of Bos grunniens with 3 samples.

Results

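*S100A2*, *S100A4*, *S100A10* and *S100A13* were followed across the compartments of yak hair follicle skin. They were chosen by symbol among the 26924 genes of the matrices, and all 4 were present with 1 row each (ENSBGRG00000006215, ENSBGRG00000006185, ENSBGRG00000002962 and ENSBGRG00000006280). Among the gated compartments of at least 50 cells, *S100A2* and *S100A10* were highest in *KRT75*+ cells in every library. *S100A2* was also higher in cells of the basal keratins than in all other cells. In 1 cluster per library, those basal cells held more *S100A2* than the *KRT75*+ cells. *S100A4* and *S100A13* were highest, among the same compartments, in cells carrying *LHX2*, *SOX9* and *SPARC*. In anagen their *S100A4* level did not differ from that of cells of the basal keratins beyond counting error. Either lead fell to 1 library of 3 when *SPARC* or *KRT14* was left out of the markers. Smaller sets held higher levels in all 3 libraries, immune cells for *S100A4* and endothelial cells for *S100A13*. All 4 were lower in cells of the suprabasal keratins than in cells of the basal ones. Between the libraries, *S100A4* was higher in telogen than in anagen in all 6 compartments that could be compared. *S100A2* was lower in catagen than in anagen in 7 of 7, except that the *KRT79*+ cells turned to 0.08 on the log2 scale with only cells that passed 1 gate.

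S100 genes encode small EF-hand proteins that mostly work as dimers, bind calcium and then attach to partner proteins inside or outside the cell. Many of them sit side by side in the epidermal differentiation region of the genome and are known for marking particular layers of keratinocytes. S100A2 is known from basal keratinocytes, S100A4 binds non-muscle myosin and is also widely used as a marker of fibroblasts and leukocytes, S100A10 is the partner of annexin A2 and is unusual in that it no longer binds calcium, and S100A13 takes part in the release of FGF1 and interleukin 1α from cells.

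The samples were 3 single-cell libraries of scapular skin of Tianzhu white yaks about 2 years old, 1 each for anagen (the growing phase of the hair cycle), catagen (regression) and telogen (rest). Single follicles were pulled out of the skin after dispase and then trypsin, and the cells were sieved before loading on the 10x Genomics platform. The tissue, age and preparation are given in the labels of each library. The study's methods describe anagen and catagen collection alone, from 3 yaks of similar age, without tying an animal to a library, and the protocol text of the catagen library names anagen while its title and stage label say catagen. With 1 library per stage no test between stages was possible, and stage, animal, library and Cell Ranger version cannot be told apart. The matrices held 12000, 12124 and 14573 cells with 82862998, 51647865 and 103511775 UMIs for anagen, catagen and telogen. After cells with under 200 detected genes were left out, 11987, 12062 and 14502 cells remained, with medians of 5256, 3350 and 5584 UMIs. Between 40 and 49 barcodes were shared by any pair of libraries, and doublets were left in.

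Compartments were drawn as gates on marker genes, and none of the markers was an S100 gene. A cell passed a gate when its marker UMIs reached a relative score of 0.2, where 1 is the level that 1 in 1000 cells exceeds, and it went to the gate with its highest score. The gate for basal and outer root sheath cells (*KRT5*, *KRT14*, *KRT15*) took 1831 anagen, 2464 catagen and 3766 telogen cells. The suprabasal gate (*KRT1*, *KRT10*, *KRTDAP*, *SBSN*) took 1904, 1707 and 2065, and the stem gate (*LHX2*, *SOX9*, *SPARC*) took 1242, 1253 and 828. Smaller sets were the inner root sheath gate (*KRT71*, *KRT25*, *KRT27*, *KRT28*) with 109, 81 and 45 cells, the *KRT85*+/*KRT35*+ cells of the hair cortex gate with 254, 99 and 76, the *KRT75*+ cells of the companion layer gate with 94, 196 and 72, and the *KRT79*+ cells of the upper follicle gate with 117, 160 and 281. The last 3 rest on 1 or 2 detected markers and are called here by those markers.

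These gates are ranges of a score and not separate cell types. In anagen, 1917 cells lay near the limit of the basal gate, with scores of 0.15 to 0.25, and 1283 lay near that of the stem gate. No gate was passed by 52.5%, 50.02% and 50.2% of anagen, catagen and telogen cells. Each gate was highest in its own markers among the keratin gates, except in 3 cases. Stem gate cells held a median of 145, 126 and 164 basal keratin UMIs per 10000, above their 44.0 to 48.3 of stem markers. *KRT79*+ cells held 211, 263 and 305 suprabasal UMIs per 10000. *KRT75*+ cells also carried basal keratins, at a median of 38.4, 38.9 and 141 per 10000, which in telogen exceeded their 117 of *KRT75*. The same cells carried suprabasal markers, at a median of 65.6, 56.8 and 50.4 per 10000. Levels are UMIs of a gene scaled to the total UMIs of the cells (CPM), with exact Poisson intervals. Ratios carry exact conditional binomial intervals and shares of cells Clopper-Pearson intervals, all at 95%, and all of these cover counting error alone. Levels of different genes are not compared with each other.

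*S100A2* was the most widely detected of the 4. In *KRT75*+ cells it stood at 16807 CPM in anagen (16539 to 17078), 8980 in catagen (8811 to 9151) and 16524 in telogen (16211 to 16841). In the basal gate it stood at 6760 CPM in anagen, 3497 in catagen and 7727 in telogen. These were the highest and the second highest level in every library, and the steps between them exceeded counting error (in anagen 1.31 on the log2 scale, 1.29 to 1.34). Stem gate cells followed in anagen and telogen, at 3254 and 4883 CPM, while in catagen they stood at 1255 CPM, under the *KRT85*+/*KRT35*+ cells at 2060 and the *KRT79*+ cells at 1870. The suprabasal gate was low throughout, at 1179, 328 and 1505 CPM.

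A 2-fold excess over all other cells of the library, in all 3 libraries, was the measure used for a compartment that holds a gene. *S100A2* met it in the *KRT75*+ cells, 6.40-fold in anagen, 6.19-fold in catagen and 3.68-fold in telogen, and in the basal gate, 3.27-fold, 3.04-fold and 2.51-fold. Over all genes, 4.68% met it in *KRT75*+ cells and 0.422%, or 21 of 4981 genes, in the basal gate. Taken by UMIs and not by level, the basal gate held 36.9%, 43.6% and 54.0% of the *S100A2* UMIs of the anagen, catagen and telogen libraries, and the few *KRT75*+ cells 6.52%, 12.8% and 2.25%.

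*S100A2* UMIs were also counted in cells of a type not known for the gene. Endothelial gate cells (*PECAM1*, *CDH5*, *VWF*, *EMCN*; 47 anagen, 15 catagen and 31 telogen cells) held 788, 467 and 1666 CPM, which was 28.4%, 28.7% and 36.5% of the level of the whole library. For shares of cells with a UMI, cells of at least 1500 UMIs were thinned to 1500 and shallower cells were left out. A UMI of *S100A2* was then seen in 57.4% of endothelial cells in anagen (42.2% to 71.7%), 21.4% in catagen (4.66% to 50.8%) and 62.1% in telogen (42.3% to 79.3%). The median depths of these cells before thinning were 3823, 2704 and 4426 UMIs. The suprabasal gate gave 57.6%, 29.4% and 68.7%, with median depths of 7675, 6132 and 8449, and its level did not differ from the endothelial one beyond counting error in catagen (log2 −0.51, −1.09 to 0.13) or telogen (−0.15, −0.30 to 0.01). No expression is read from the suprabasal values of those 2 libraries, and free RNA was not measured. In anagen the excess was 0.58 on the log2 scale (0.36 to 0.81). In *KRT75*+ cells the share was 100%, 88.8% and 98.5%, and in the basal gate 84.0%, 58.6% and 90.3%.

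**Figure D1:**
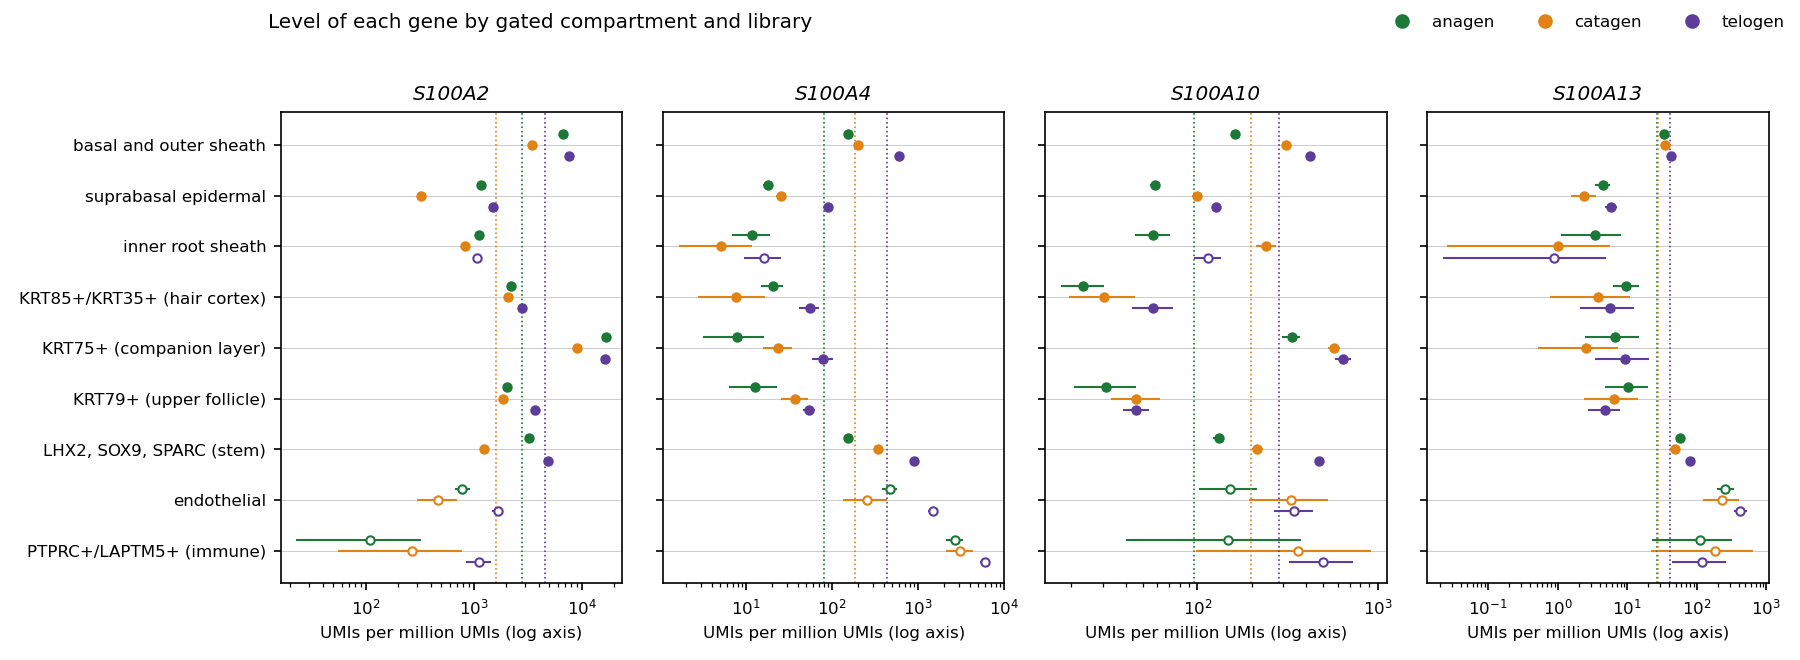
Level of each gene (CPM, log axis) in 7 gated compartments and in endothelial and immune gate cells, by library. Points are sums over cells, bars are exact 95% Poisson intervals, open points are sets of under 50 cells, dotted lines are whole-library levels, and the *KRT75*+ points of *S100A2* (8980 to 16807) and *S100A10* (333 to 642) lie right of all 3 dotted lines.

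Within the basal gate *S100A2* was far from uniform. When each library was clustered on its own, without S100 genes among the input, *S100A2* in basal gate cells ranged from 1457 to 18967 CPM over 7 clusters of at least 50 such cells in anagen, from 510 to 14235 over 7 in catagen, and from 1699 to 22644 over 13 in telogen. In each library the highest value came from 1 cluster, which was led by *ATP6V1B1*, *NMB*, *PDZRN3*, *TPM1* and *CRABP2* in anagen and by *TPM1*, *S100A2* and *CRABP2* with other genes in catagen and telogen. These clusters held 645, 429 and 765 cells, of which 378, 277 and 451 were in the basal gate. They carried 30.9%, 40.4% and 27.6% of all *S100A2* UMIs of their libraries. Their basal gate cells, at 18967, 14235 and 22644 CPM, stood above the *KRT75*+ cells at 16807, 8980 and 16524.

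Set against clusters and not gates, the *KRT75*-led cluster was highest for *S100A2* in anagen only. It stood at 17484 CPM there against 15115 in the *CRABP2* cluster. In catagen the *CRABP2* cluster stood at 12549 CPM and the *KRT75* cluster at 8126, and in telogen the *CRABP2* cluster stood at 18998 CPM with the next cluster, led by *TF*, *KLK12* and *SPINK9*, at 8604. These comparisons by cluster were added after the levels by gate had been seen.

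The other 3 genes were low in the basal gate cells in which *S100A2* was highest. *S100A4* stood at 22.1 CPM in those anagen cells and at 19.6 in the catagen ones, the lowest of the 7 clusters in either library, and at 141 in telogen, the lowest of 13. *S100A10* was lowest there in anagen, at 87.2 CPM, and stood at 167 in catagen and 290 in telogen. *S100A13* stood at 13.9, 6.18 and 14.7 CPM against highest values of 60.3, 70.9 and 111 among the basal gate clusters.

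**Figure D2:**
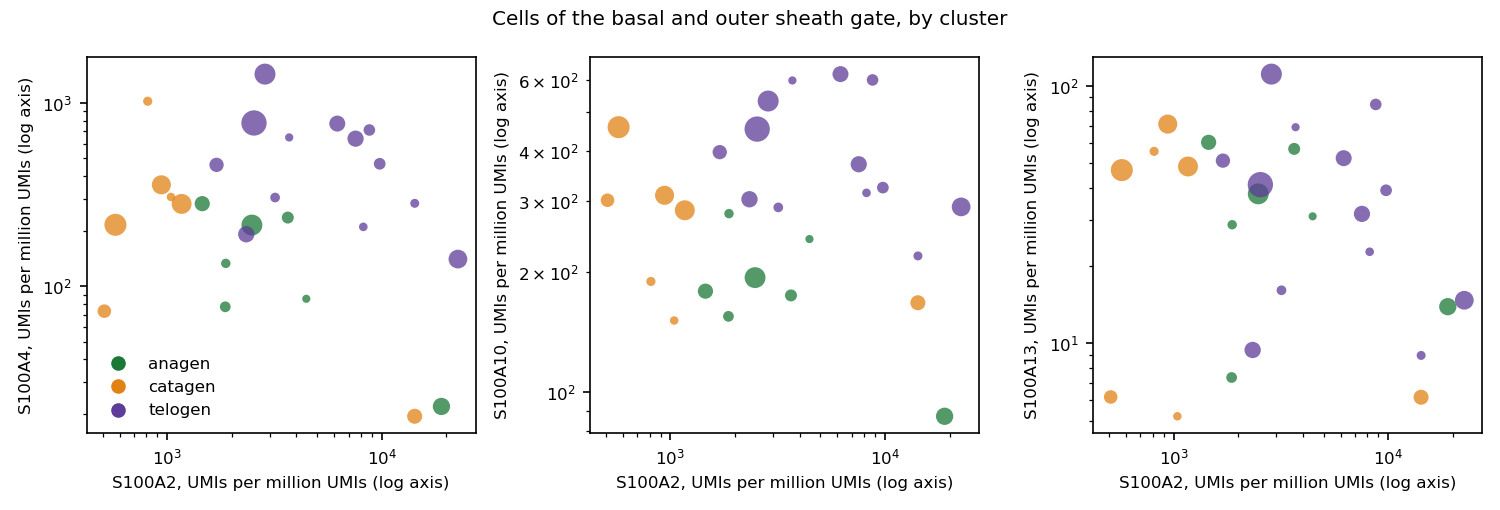
Levels of *S100A4*, *S100A10* and *S100A13* against *S100A2* in cells of the basal and outer sheath gate, 1 point per cluster with at least 50 such cells (CPM, log axes; point area grows with the number of cells; colours are libraries). The cluster highest in *S100A2* in each library, at 14235 to 22644 CPM, lies at 19.6 to 141 CPM of *S100A4*, and another telogen cluster at 14247 CPM lies at 284.

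*S100A4* showed another order. It stood at 151 CPM in the anagen stem gate (142 to 161), 342 in catagen (324 to 361) and 900.4 in telogen (873 to 929). The basal gate came second, at 151 CPM in anagen, 198 in catagen and 602 in telogen. The anagen levels of these gates did not differ beyond counting error (log2 0.00, −0.11 to 0.11), while the stem gate was ahead by 0.79 in catagen (0.69 to 0.89) and by 0.58 in telogen (0.53 to 0.63).

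All other keratin gates were far lower in *S100A4*. The suprabasal gate held 17.8, 25.3 and 90.2 CPM, *KRT75*+ cells 7.84, 23.4 and 77.8, and the *KRT85*+/*KRT35*+ cells 20.2, 7.55 and 54.7. The step from the second to the third compartment was 2.90, 2.42 and 2.74 on the log2 scale in anagen, catagen and telogen, and of the 8 steps below it in anagen and catagen, 1 exceeded counting error, that from *KRT75*+ to *KRT85*+/*KRT35*+ cells in catagen. Inner root sheath cells held 17 UMIs in anagen and 5 in catagen, or 11.8 and 5.04 CPM. After thinning, 0.917% of anagen inner root sheath cells had a UMI of *S100A4* (0.0232% to 5.01%), and in catagen 0 of 73 cells had one, which allows a share of up to 4.11% of cells with a UMI, taking 3 cells as the limit under a count of 0. In the stem gate the share was 12.6%, 22.6% and 36.9%. Median depths before thinning were 5134 and 10104 UMIs for those inner root sheath cells and 4120, 3016 and 5018 for the stem gate.

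The excess of *S100A4* in the stem gate over all other cells was small, at 2.05-fold, 2.02-fold and 2.22-fold, just past the 2-fold limit, which 4.32% of genes met in this gate. The place of the stem gate at the head of the order depended on single markers. Without *SPARC* among the stem markers, or without *KRT5* or *KRT14* among the basal ones, the stem gate led *S100A4* in 1 library of 3. Cells in no gate held 44.4%, 59.5% and 40.0% of all *S100A4* UMIs.

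Part of these UMIs lay in clusters whose cells mostly passed no gate. Only clusters of at least 50 cells were ranked. Among them, *S100A4* was highest in anagen in a cluster led by *PTHLH*, *NGFR* and *ENPP1* (192 cells, 140 in no gate), at 748 CPM. In catagen it was highest in 383 cells led by *PTHLH*, *IGFBP5* and *ENPP1*, at 1385 CPM, 312 of them in no gate. In telogen it was highest in 1767 cells of a cluster led by *HPGD*, with *S100A4* and *S100A13* among its own leading genes, at 1189 CPM, 1141 of them in no gate. These clusters held 11.3%, 20.02% and 29.2% of the *S100A4* UMIs of their libraries. In anagen, smaller clusters of 29 cells closest to the immune gate and 19 closest to the endothelial gate stood higher, at 1105 and 1074 CPM. Telogen had 34 and 48 such cells, at 5373 and 1396 CPM. *PTHLH*, which encodes parathyroid hormone-related protein, also divided the stem gate. This split was added after seeing the clusters ranked by *S100A4*. Those of anagen and catagen were led by *PTHLH*, with *S100A4* also among their leading genes. For *S100A4* the split therefore describes the same libraries and gives no separate support. Stem gate cells with a UMI of *PTHLH* (67, 62 and 39 cells) held 297, 990 and 1925 CPM of *S100A4* against 142, 302 and 811 in those without, log2 differences of 1.07, 1.71 and 1.25. The median depth of the cells with a UMI was 4585, 3285 and 6749 UMIs, against 4091, 2579 and 4161, and the part of depth in these differences was not tested. For *S100A13* the same differences were −0.27, −1.21 and 0.20, and for *S100A10* −0.36, −0.29 and 0.19. Their intervals included 0 in all 3 libraries. *S100A2* differed by −0.31 in anagen (−0.40 to −0.22), 0.09 in catagen (−0.09 to 0.25) and 0.73 in telogen (0.67 to 0.79).

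Small sets of non-epithelial cells held *S100A4* at high levels, and the immune gate stood above every keratin gate in all 3 libraries. In that gate (*PTPRC*, *LAPTM5*; 7, 4 and 13 cells) it stood at 2650 CPM in anagen (2074 to 3338), 3055 in catagen (2116 to 4269) and 5895 in telogen (5242 to 6606), 17.5-fold, 8.94-fold and 6.55-fold above the stem gate. Mesenchymal gate cells (*COL1A2*, *COL3A1*, *LUM*, *PDGFRA*) held 1231 CPM in 40 anagen cells and 2575 in 7 telogen cells, while the 2 catagen cells had 1 UMI. Endothelial gate cells held 467, 253 and 1471 CPM, above the stem gate in anagen and telogen and not distinguishable from it in catagen (log2 −0.43, −1.35 to 0.35).

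*S100A10* had the same leading gate as *S100A2*. It stood at 333 CPM in anagen *KRT75*+ cells (296 to 373), 575 in catagen (532 to 619) and 642 in telogen (582 to 708). The basal gate held 162, 311 and 422 CPM and the stem gate 131, 215 and 470. Endothelial gate cells held 151, 331 and 344 CPM, from which the basal gate did not differ beyond counting error in any library. The *KRT75*+ cells stood above the endothelial ones by 1.14, 0.80 and 0.90 on the log2 scale, beyond counting error. *KRT75*+ cells stood 3.56-fold, 3.02-fold and 2.27-fold above all other cells, so that *S100A10* was called in this compartment in all 3 libraries, beside a background of 4.68% of genes. Its partner gene *ANXA2* was also highest in *KRT75*+ cells in all 3 libraries, at 3533, 4177 and 5718 CPM. Among clusters of at least 50 cells, the *KRT75*-led ones were highest for *S100A10* in anagen and catagen, at 336 and 505 CPM. A smaller anagen cluster, of 19 cells closest to the endothelial gate, stood at 386 CPM. In telogen a cluster led by *TOP2A* and *CENPF* was highest, at 529 CPM, before the *HPGD* cluster at 455, and the *TF* cluster, which held 23 of the *KRT75*+ cells, stood at 344. In 9 catagen cells of the melanocyte gate it stood at 621 CPM from 12 UMIs (321 to 1085), which did not differ from the *KRT75*+ cells beyond counting error.

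The basal gate stopped just short of the limit for *S100A10*, at 1.92-fold, 1.82-fold and 1.91-fold over all other cells. Low levels were seen in *KRT79*+ cells, at 31.2, 45.7 and 45.8 CPM, and in *KRT85*+/*KRT35*+ cells, at 23.2, 30.2 and 56.6. The inner root sheath gate went from 56.9 CPM in anagen to 240 in catagen, where it did not differ from the stem gate beyond counting error (log2 0.16, −0.06 to 0.37). By UMIs the basal gate held the largest share of any gate, and cells in no gate held 44.6%, 39.8% and 34.6%.

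*S100A13* had the lowest counts of the 4, with 2229, 1412 and 4289 UMIs in the anagen, catagen and telogen libraries. It stood at 57.6, 48.3 and 79.1 CPM in the stem gate and at 33.4, 35.1 and 43.1 in the basal gate, steps of 0.79, 0.46 and 0.88 on the log2 scale that exceeded counting error in each library. In all other keratin gates it was at most 10.4 CPM, and no step among those exceeded counting error. The stem gate stood 2.37-fold, 1.88-fold and 1.99-fold above all other cells, so it missed the 2-fold limit in 2 of 3 libraries. Without *SPARC* or without *KRT14* among the markers it led in 1 library of 3.

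The highest *S100A13* level in any set with more than 10 UMIs lay in endothelial gate cells. They held 258 CPM in anagen (53 UMIs), 234 in catagen (12 UMIs) and 424 in telogen (85 UMIs), 4.47-fold, 4.84-fold and 5.36-fold above the stem gate, with log2 intervals of 1.72 to 2.58, 1.30 to 3.11 and 2.06 to 2.77. In anagen 40 mesenchymal gate cells held 201 CPM, from 39 UMIs. The melanocyte gate (*PMEL*, *MLANA*, *TYRP1*) gave 10 UMIs in 9 catagen cells, or 517 CPM (248 to 951), and took 0 cells in anagen. Among clusters of at least 50 cells, telogen was highest in the 1767 cells led by *HPGD*, with 32.5% of the library's *S100A13* UMIs at 129 CPM. Smaller telogen clusters stood above it, with 48 cells closest to the endothelial gate at 381 CPM and 34 closest to the immune gate at 209. In catagen, 1209 cells of a cluster led by *CD74* and *S100A13* held 15.4% of its UMIs at 77.2 CPM. They came second to a cluster of 77 cells at 183 CPM. Clusters were not matched between libraries.

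No member met the 2-fold limit in the suprabasal gate, where 2.79% of genes did, in the *KRT85*+/*KRT35*+ cells, where 8.04% did, or in the *KRT79*+ cells, where 2.61% did. In all, 4 pairs of a member and a compartment met it: *S100A2* in *KRT75*+ cells and the basal gate, *S100A10* in *KRT75*+ cells and *S100A4* in the stem gate. With only cells that passed 1 gate 0 of these 4 held, and with the mean of per-cell CPM 2 did. Under the first setting the *KRT75*+ pairs could not be called. In telogen 28 of the 72 *KRT75*+ cells passed several gates, which left under 50.

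**Figure D3:**
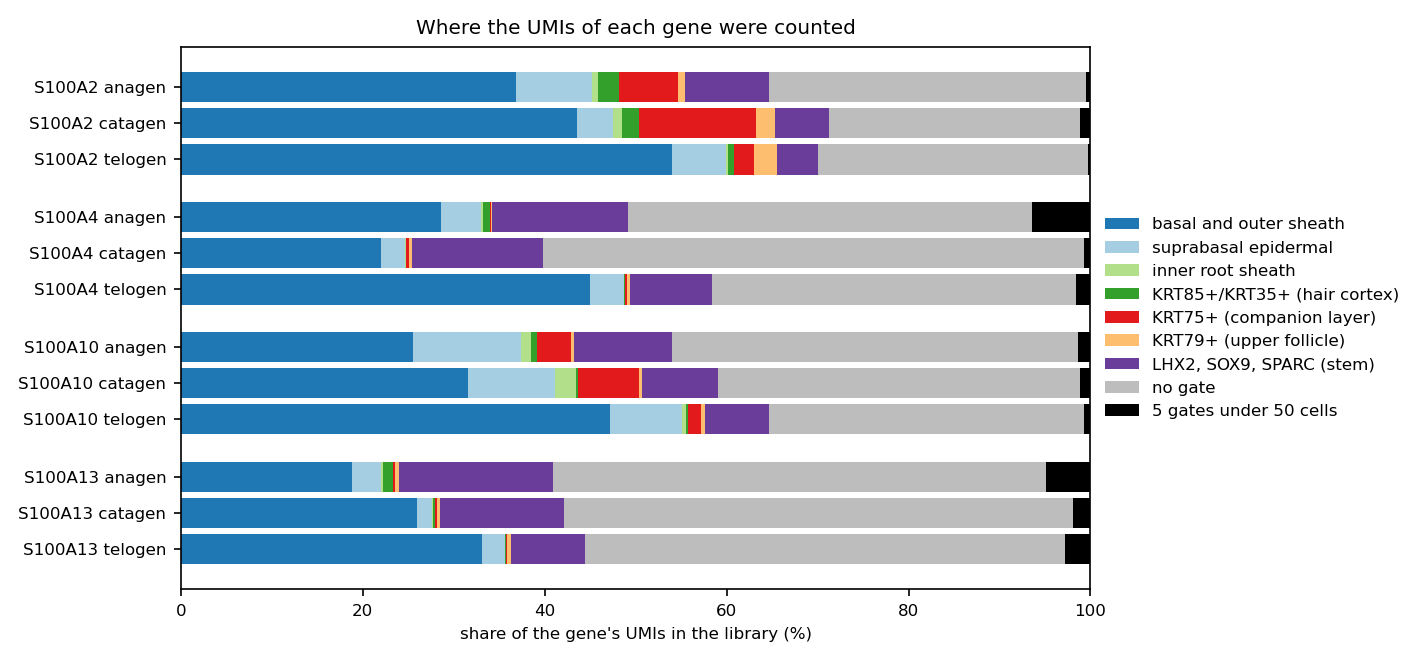
Share of each gene's UMIs (%) counted in each gated compartment of a library, with cells in no gate in grey and the 5 gates of under 50 cells in black. The basal and outer sheath gate (blue) holds 36.9% to 54.0% of *S100A2*, and grey holds 52.8% to 56.0% of *S100A13*.

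The 4 genes were all lower toward the suprabasal end of the balance of keratins. Cells of the basal and suprabasal gates were put into 5 equal bins by the share of suprabasal markers in their basal plus suprabasal marker UMIs. From the first to the last bin *S100A2* went from 6951 to 1039 CPM in anagen, from 3482 to 295 in catagen and from 8642 to 1198 in telogen. It was 6.69-fold lower in the last anagen bin. The last bins of catagen and telogen lay under the endothelial levels of 467 and 1666 CPM, so no fold is given for them. *S100A4* was 10.7-fold, 10.96-fold and 15.2-fold lower in the last bin, and *S100A13* 10.1-fold, 17.1-fold and 14.7-fold lower. The last *S100A13* bins held 3.71, 2.29 and 3.65 CPM, from 55, 20 and 47 UMIs. At such levels no step between its lower keratin gates exceeded counting error. *S100A10* had the smallest differences, 3.08-fold, 3.84-fold and 5.38-fold.

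The steps of *S100A2* were not even. In catagen the second bin, at 3974 CPM, stood above the first, and the next bins held 1414 and 563 CPM. *S100A10* was nearly level over the middle bins of catagen, at 215, 202 and 201 CPM, with 84.9 in the last. The middle bin is thin, with 84, 81 and 354 cells in anagen, catagen and telogen, and cells with both keratin sets may include doublets, whose part was not tested.

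**Figure D4:**
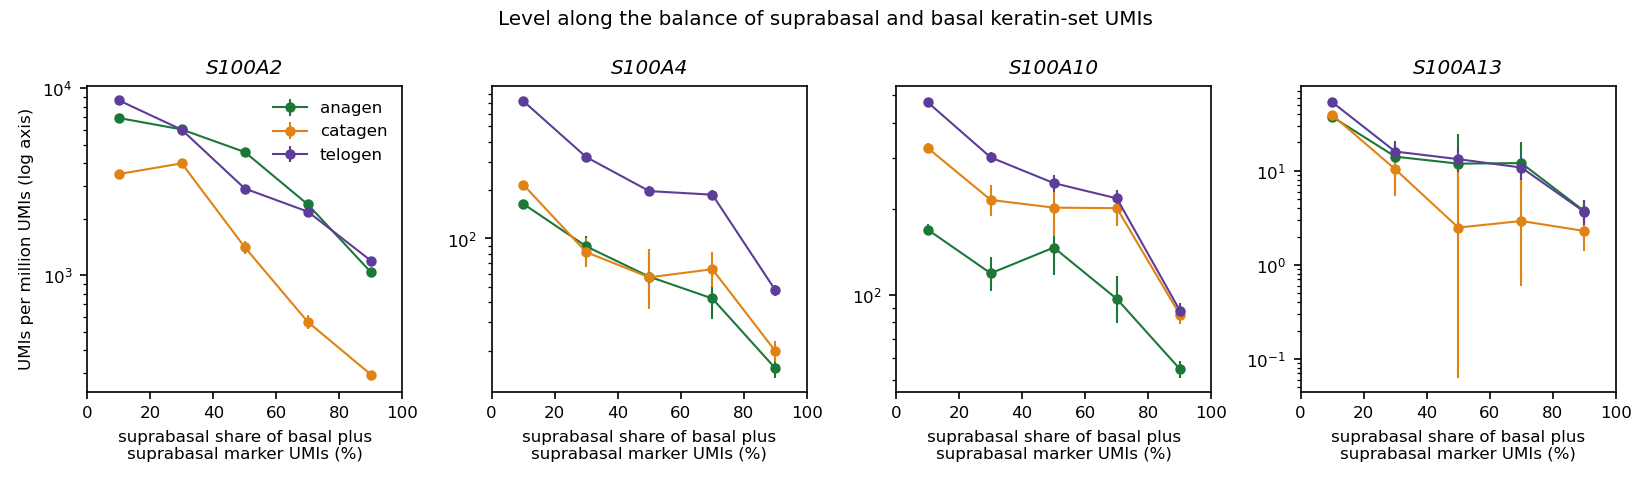
Level of each gene (CPM, log axis) against the suprabasal share of basal plus suprabasal marker UMIs (%, centres of 5 equal bins) for cells of these 2 gates, by library, with exact 95% Poisson intervals. Every line is lowest in the last bin, as for *S100A2* at 1039, 295 and 1198 CPM, and the catagen *S100A13* point at the centre rests on 1 UMI.

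Dividing cells differed from the rest of their gate in some members, to an extent that varied with gate and library. In the basal gate, cells with *TOP2A*, *CENPF* and *UBE2C* (30 anagen, 21 catagen and 84 telogen cells) held 362, 769 and 786 CPM of *S100A10* against 159, 304 and 411 in the others, log2 differences of 1.19, 1.34 and 0.94. *S100A2* was lower in the same cells, by log2 differences of −1.83, −3.17 and −1.39. In the stem gate, the 19, 14 and 24 mitotic cells held 23.4, 59.9 and 184 CPM of *S100A4* against 154, 349 and 945 in the others. In the basal gate the *S100A4* differences were smaller, at −1.11, −0.60 (−1.33 to 0.05) and −0.20. Stem gate differences were 0.59 (−0.05 to 1.16), 1.14 and 0.39 for *S100A10* and −1.805, −0.32 and −0.25 for *S100A2*. The mitotic cells differed in *S100A13* by less than counting error in both gates, except in the telogen stem gate, at 45.9 against 81.2 CPM, a log2 difference of −0.82 whose interval just excluded 0. The clusters that hold the mitotic cells of a gate were not matched to those of the others, so the share of these differences that comes from position within the gate was not tested.

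Between libraries, *S100A4* and *S100A10* exceeded 2-fold in the sum over all cells of catagen over anagen, with log2 ratios of 1.19 and 1.05, and of telogen over anagen, with 2.42 and 1.57. *S100A2* and *S100A4* exceeded it in telogen over catagen, with 1.49 and 1.23. Of all genes with at least 10 CPM, 7.88% passed 2-fold in catagen over anagen (4.41% higher), 10.8% in telogen over anagen (3.0% higher) and 16.1% in telogen over catagen (4.1% higher). *S100A2* was the only member below 0 in catagen over anagen, at −0.77, and *S100A13* had values of 0.03, 0.62 and 0.60. The median log2 ratio over all genes was 0.02, −0.14 and −0.17 for the 3 pairs. With at least 1000 genes per cell, the catagen over anagen ratios of *S100A4* and *S100A10* fell to 0.73 and 0.98, short of 2-fold. Under the alternatives run, their telogen over anagen ratios were lowest at 2.35 and 1.55. The pairs share libraries, so they are not independent of each other.

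Within compartments, *S100A4* was at least 2-fold higher in telogen than in anagen in 6 of 6, from 1.44 on the log2 scale in *KRT85*+/*KRT35*+ cells to 3.31 in *KRT75*+ cells (2.16 to 4.70, from 7 against 50 UMIs). The stem gate went from 151 to 900.4 CPM, a log2 ratio of 2.57 (2.47 to 2.67). In *KRT85*+/*KRT35*+ cells the ratio missed 2-fold with the mean of per-cell CPM, at 0.70, and with a gate limit of 0.1, at 0.93. The endothelial gate moved the same way, by 1.66 (1.32 to 2.00), and so did the immune gate, by 1.15 (0.78 to 1.55). The inner root sheath gate, with 45 telogen cells, gave 0.43 (−0.61 to 1.48), from 18 telogen and 17 anagen UMIs. That ratio did not exceed counting error. Over all genes and compartments, 5.0% of pairs were at least 2-fold higher in telogen than in anagen, and 15.3% passed in either direction.

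Catagen lay between the other libraries for *S100A4* in the basal, suprabasal and stem gates and in *KRT75*+ and *KRT79*+ cells. In the stem gate it was 1.17 above anagen (1.05 to 1.29) and in the basal gate 0.39 (0.30 to 0.48). The stem ratio fell to 0.23 with clusters in place of gates. The basal ratio turned to −0.33 with a gate limit of 0.4, and the suprabasal one, 0.51, turned to −0.28 with clusters in place of gates. Catagen was the lowest library in *KRT85*+/*KRT35*+ cells, at 6 UMIs.

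*S100A2* was lower in catagen than in anagen in 7 of 7 compartments, and past 2-fold in the stem gate, at −1.37. The suprabasal gate gave −1.85, with a catagen level from which no expression is read. The basal gate and the *KRT75*+ cells stopped short of 2-fold, at −0.95 and −0.90, and the *KRT85*+/*KRT35*+ and *KRT79*+ cells stood at −0.11 and −0.14, the latter at 0.08 with only cells that passed 1 gate. Endothelial gate cells were also lower, by 0.75 on the log2 scale (−1.44 to −0.13). Telogen differed little from anagen for *S100A2* in *KRT75*+ cells (−0.02, −0.06 to 0.01) and in the basal gate (0.19, and −0.23 with a gate limit of 0.4), and more in the *KRT79*+ cells (0.86). The endothelial gate gave 1.08 in that pair (0.81 to 1.36), above every compartment compared. In telogen over catagen it gave 1.83 (1.24 to 2.50). Its bearing on the ratios of the compartments was not tested.

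*S100A10* was higher in telogen than in anagen in 6 of 6 compartments and at least 2-fold in 4, with the largest ratio in the stem gate at 1.84 (1.73 to 1.96). The endothelial gate moved the same way in telogen over anagen, by 1.19 (0.56 to 1.85), and the immune gate by 1.76 (0.22 to 3.74). The largest *S100A10* ratio of catagen over anagen, 2.08 (1.71 to 2.46), was in the inner root sheath gate, from 238 against 82 UMIs. In that pair the endothelial gate gave 1.135 (0.19 to 2.03). In the stem and basal gates *S100A13* had ratios of 0.46 and 0.37 in telogen over anagen and of −0.26 and 0.07 in catagen over anagen. Its 3 ratios under −1 in catagen over anagen rest on 1 to 3 catagen UMIs each, with intervals that include 0.

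Counts over pairs of a member and a compartment were taken with the minimum of 10 CPM in either library that the share over all genes used, a limit added after the counts were seen. Of 24 such pairs, 8 passed 2-fold in catagen over anagen, 4 higher and 4 lower, beside 15.8% of all genes' pairs (8.97% higher and 6.82% lower). The intervals of 7 of these excluded 0. Without the minimum 11 of 28 passed, for which no share of all genes' pairs is given. In the whole library 32.4% of genes passed without it. In telogen over anagen 11 of 21 passed, 10 higher and 1 lower, beside 15.3% (5.0% and 10.3%), and the intervals of the 10 excluded 0. In telogen over catagen 9 of 20 passed, all higher with intervals that excluded 0, beside 21.2% (6.42% higher and 14.8% lower). Without the minimum 11 of 24 passed, and in the whole library 42.8% of genes did. These counts include *S100A2* in the suprabasal gate of catagen. The pairs of 1 gene share a library, so their counts are a description.

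**Figure D5:**
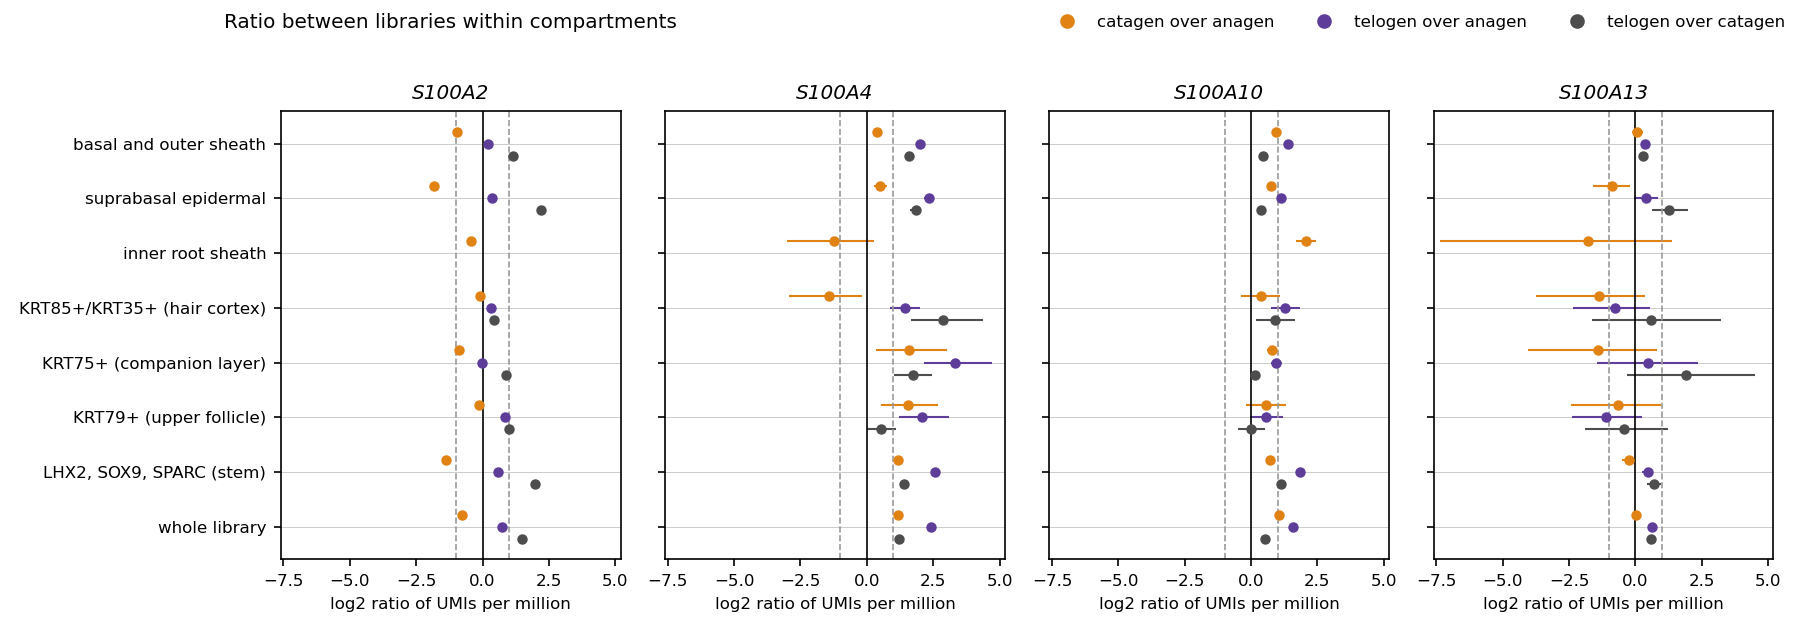
Log2 ratio of CPM between libraries for each gene within compartments and in the whole library, with exact 95% conditional binomial intervals; dashed lines mark 2-fold, and the inner root sheath has no telogen ratio because telogen had 45 such cells. All 6 telogen over anagen points of *S100A4* within compartments lie right of the 2-fold line, at 1.44 to 3.31.

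Of the other S100 genes, 12 had a row and 5 reached 50 CPM in a compartment. *S100A7*, *S100A8*, *S100A9* and *S100A12*, which encode antimicrobial and inflammatory proteins of the upper epidermis, were called in the suprabasal gate, where 2.79% of genes were. *S100A7* there stood at 17454, 836 and 12820 CPM. In catagen *S100A8* was highest in the inner root sheath gate, at 242 CPM against 39.3 in the suprabasal gate. In anagen these gates held 199 and 364 CPM of *S100A8*. *S100A16* was highest in *KRT75*+ cells, at 1781, 1144 and 1738 CPM, and was called there together with the sparser *S100A14*, at 26.9, 39.3 and 24.9. *S100A3*, a gene of the hair shaft, was highest in *KRT85*+/*KRT35*+ cells, at 8.42, 6.29 and 8.49 CPM. *S100A6* had a row and 0 UMIs in the kept cells of all 3 libraries. Whether that row takes up the reads of the gene was not tested, so no absence of expression is read from it.

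Of 9 known partner genes, 7 had a row. *MYH9*, the non-muscle myosin heavy chain bound by S100A4, was highest in the stem gate in all 3 libraries, at 256, 313 and 139 CPM, and *TP63*, the regulator of basal keratinocytes, was highest there too, at 41.0, 81.3 and 50.9. *IL1A*, which encodes interleukin 1α, lay elsewhere than *S100A13*, at 50.6 CPM in the anagen suprabasal gate against 14.5 in the stem gate, while in catagen and telogen it was highest in *KRT79*+ cells, at 15.2 and 7.69 CPM, from 14 and 24 UMIs, against 7.87 and 6.39 in the suprabasal gate. *AGER*, a receptor for S100 proteins, had 70 to 76 UMIs in a whole library, and *SYT1* 15 to 24.

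The genes whose levels followed each member most closely were taken over the 20 groups of a compartment and a library with at least 50 cells, among 2742 genes, as Pearson's r of log2(CPM + 10). The groups share libraries, depth and basal keratins, so r is a description only. For *S100A2* they were *PDLIM4* and *TAGLN2* (r = 0.872 each) and *WDR61* (0.856). For *S100A10* they were *P4HA2* (0.842), *KRT7* (0.839) and *TAGLN* (0.816). For *S100A4* they were *CAV1* (0.907), *SPARC* (0.902) and *LAMA3* (0.898), and for *S100A13* *EMP3* (0.970), *SPARC* (0.963) and *SLC12A4* (0.961). *SPARC* was a marker of the stem gate, which places it near any gene of that gate. *TAGLN* was also a gate marker, that of contractile cells. With log2(CPM + 1), *PMP22* took the place of *TAGLN* for *S100A10*, and *TNC* that of *LAMA3* for *S100A4*. Among the members, *S100A4* and *S100A13* were the most alike (r = 0.883), and *S100A2* and *S100A4* the least (0.285).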

How the data were processed

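The authors deposited 1 matrix of whole-number UMI counts per library, with no normalization. The methods describe STAR alignment and cell calling by Cell Ranger. Cell Ranger's own version in the matrix headers differed (anagen 4.0.0, catagen 3.1.0, telogen 6.0.2), whereas the submitters' processing notes name 2.1.1; the genome build is not given in the sources used here. The libraries were mapped to stages by their labels. Cells with at least 200 genes were kept.

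UMIs were summed over the cells of a gate and scaled to the total UMIs of those cells (CPM). A gate needed a relative score of 0.2, at least 3 marker UMIs and, where it had more than 1 marker with a row, at least 2 of them; 35 of 41 markers had a row. Compartments were reported as such with at least 50 cells. Values of sets of under 50 cells were added after seeing the data. A gene was called past 2-fold, with the share over all genes of at least 10 CPM beside it. With 1 library per stage no p-value was computed. Named genes were the 4 members, all other S100 genes with 50 CPM in a compartment, a fixed list of 9 partners, of which 1 is not reported here, and the 3 genes most alike to each member. The members, markers and lists were chosen with earlier results of these data known. Clusters and genes named from them were looked at after the levels by gate. Clustering (scanpy 1.11.5, igraph 0.11.9) used 2000 variable genes without S100 genes. Sums and intervals used numpy 2.4.6 and scipy 1.17.1 in python 3.11.15, and the ratio intervals were tested on simulated data. Doublets were not removed. Alternatives covered the gate limit, cell filters, scaling, markers left out one at a time, thinning and clusters in place of gates. Members have no sequence in the tables used here, so none is shown.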

Additional observations from a re-analysis of the deposited data

Results flagged for a closer look

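*S100A4* moved in opposite directions between catagen and anagen in different compartments. In *KRT75*+ cells the log2 ratio was 1.58 (0.35 to 3.02), from 28 against 7 UMIs, and in *KRT85*+/*KRT35*+ cells it was −1.42 (−2.94 to −0.20), from 6 against 48 UMIs, so the ratios differed by 3.0 on the log2 scale. Their counting intervals do not overlap, but with 1 library per stage the difference was not tested.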

How the results depend on the processing

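No value past 2-fold changed sign under any alternative run. *KRT75*+ cells led *S100A2* and *S100A10* in 3 of 3 libraries under all alternatives run, except those in which telogen could not be counted. With only cells that passed 1 gate telogen had under 50 such cells, and with clusters none was given to that compartment. In both cases they led in the 2 libraries left. *KRT75* is the only marker of its gate, so it could not be left out. In the cluster setting, the catagen basal compartment pooled the *CRABP2* cluster, at 12549 CPM of *S100A2*, with a cluster at 519. The *KRT75* cluster stood at 8126. With clusters, *S100A4* and *S100A13* were led by the stem compartment in 1 library each, with 6 pairs past 2-fold in catagen over anagen, 6 in telogen over catagen and 2 pairs past 2-fold over all other cells in every library. With 1 marker left out of its gate, the values farthest from the reported ones were 1 library for *S100A4*, 1 for *S100A13* and 2 pairs over all other cells. With a gate limit of 0.4, 7 pairs passed in catagen over anagen and 7 in telogen over anagen. With only cells that passed 1 gate, 0 of the 4 pairs stayed past 2-fold over all other cells in every library. Those of *KRT75*+ cells could not be called there, because telogen had under 50 such cells. With at least 1000 genes per cell, 0 members passed in the whole library in catagen over anagen, and 7 pairs within compartments. With at least 2500 UMIs per cell 1 member passed there. With the mean of per-cell CPM, 1 member passed in telogen over catagen, and 2 pairs stayed past 2-fold over all other cells. Apart from these limits of counting in telogen, the causes were not tested. Without the cells whose barcode is shared between libraries, an alternative added after seeing the data, all 11 of the counts above kept within 1.5 times of their reported value. No paired analysis was possible because each stage has 1 library. With pairs under 10 CPM in both libraries left out, also added after seeing the data, 8, 11 and 9 pairs passed between stages. Depth limits *S100A13* and the gates of under 50 cells, and catagen was the shallowest library.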

Other observations

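Cells of the contractile gate (*ACTA2*, *TAGLN*, *MYH11*, *RGS5*; 47 anagen, 38 catagen and 30 telogen cells) were too few for a compartment of their own. They held 1854, 4793 and 2448 CPM of *S100A2*, and catagen was the one library in which they stood above the basal gate, at 4793 against 3497 CPM. *S100A4* stood there at 37.1, 69.7 and 199 CPM, below the stem gate in each library. *KRT75*+ cells also carried these contractile markers, at a median of 10.9, 5.21 and 4.27 UMIs per 10000, and 25, 28 and 14 cells assigned to the contractile gate passed other gates as well.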
